A study of Drosophila melanogaster with 2 samples.

Results

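The 36 homeodomain factor genes outside the Hox clusters were engrailed (en), invected (inv), vnd, ind, ara, caup, mirr, B-H1, B-H2, lbe, lbl, slou, Dll, ems, unpg, oc, ey, toy, so, Optix, vvl, nub, pdm2, ap, Lim1, Lim3, tup, ct, exd, hth, unc-4, Rx, al, Ptx1, gsb and gsb-n. They were taken by name from 13945 protein-coding genes on the 6 chromosome arms of the dm6 build, and all 36 were found in the Ensembl annotation. Binding of the transcription factor Fer2 was mapped by chromatin immunoprecipitation and sequencing (ChIP-seq) in Drosophila melanogaster embryos, taken whole at 6 to 24 h. The flies were 1 transgenic line that stably carried Fer2 with GFP at its C terminus, and chromatin sonicated to 200 to 800 bp was precipitated with an antibody to GFP. Both samples (n = 2) belonged to this 1 group, as biological replicates that the submitters call 2 and 3. Input and other-factor samples were not analysed here, and what drives the fusion gene is not given in the sources used here. Because whole embryos were used, strong binding in few cells and weak binding in many cannot be told apart.

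A homeodomain is a compact fold of helices that reads short AT-rich DNA words, often with TAATTA or its TAAT core. Outside the Hox clusters, homeodomain factors lay out segments and limbs, give nerve cells and muscles their identities, and start eye formation. Many of their genes are controlled by enhancers spread through long introns and intergenic DNA. Fer2 is a basic helix-loop-helix factor, a class that reads the E-box CANNTG.

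A peak was counted for a gene if its summit lay in the gene or within 5 kb of either end. Each list gave every peak a signal value, a score on a scale that is not stated, and peaks were ranked by it within a list, with rank 1 the highest. The list from the pooled replicates and that of each replicate held 30000 peaks, and a list that the submitters thresholded for reproducibility between replicates held the 2862 pooled peaks of highest signal value (75.7 to 2295, median 123). No read counts came with the lists, and the depth behind each peak is unknown. Both replicates and the pool were set against the same control alignment, so overlap between lists cannot show a bias in it.

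Few of these genes lay near a thresholded peak. Only 4 of 36 (11.1%) had a thresholded summit within 5 kb, namely tup, hth, ct and Rx, against 39.8% of all protein-coding genes. A thresholded summit lay inside 2 of 36 (5.56%), hth and ct, against 8.42% of all genes. None of the 36 had one within 500 bp of its own transcription start site (TSS), against 15.9% of all genes. The 36 are long, with a median of 15.8 kb (1.13 to 132 kb) against 2.17 kb for all genes, so their windows were wider. Among genes of 10 kb or more, 4 of 24 (16.7%) had a thresholded summit within 5 kb against 51.5% of 1977 genes, and 2 of 24 (8.33%) held one inside against 31.0%.

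The full lists, which run down to weak calls, gave shares closer to the background. A pooled peak lay within 5 kb of 33 of 36 (91.7%) against 87.4% of all genes, the exceptions being B-H2, slou and al. The list of replicate 2 gave 32 of 36 (88.9%) against 87.4%, with none at ind, B-H1, B-H2 and pdm2. The list of replicate 3 gave 35 of 36 (97.2%) against 91.6%, with none at lbe. These shares were not matched for gene length, and 1930 of 1977 genes of 10 kb or more had a pooled peak. Over the 1103 kb that the 36 windows covered, there were 216 pooled peaks, or 1.96 per 10 kb, against 2.24 per 10 kb over the arms. Thresholded peaks were at 0.0635 per 10 kb against 0.214. Of the 216 pooled peaks 3.24% passed the threshold, against 9.54% of all pooled peaks.

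**Figure D1:**
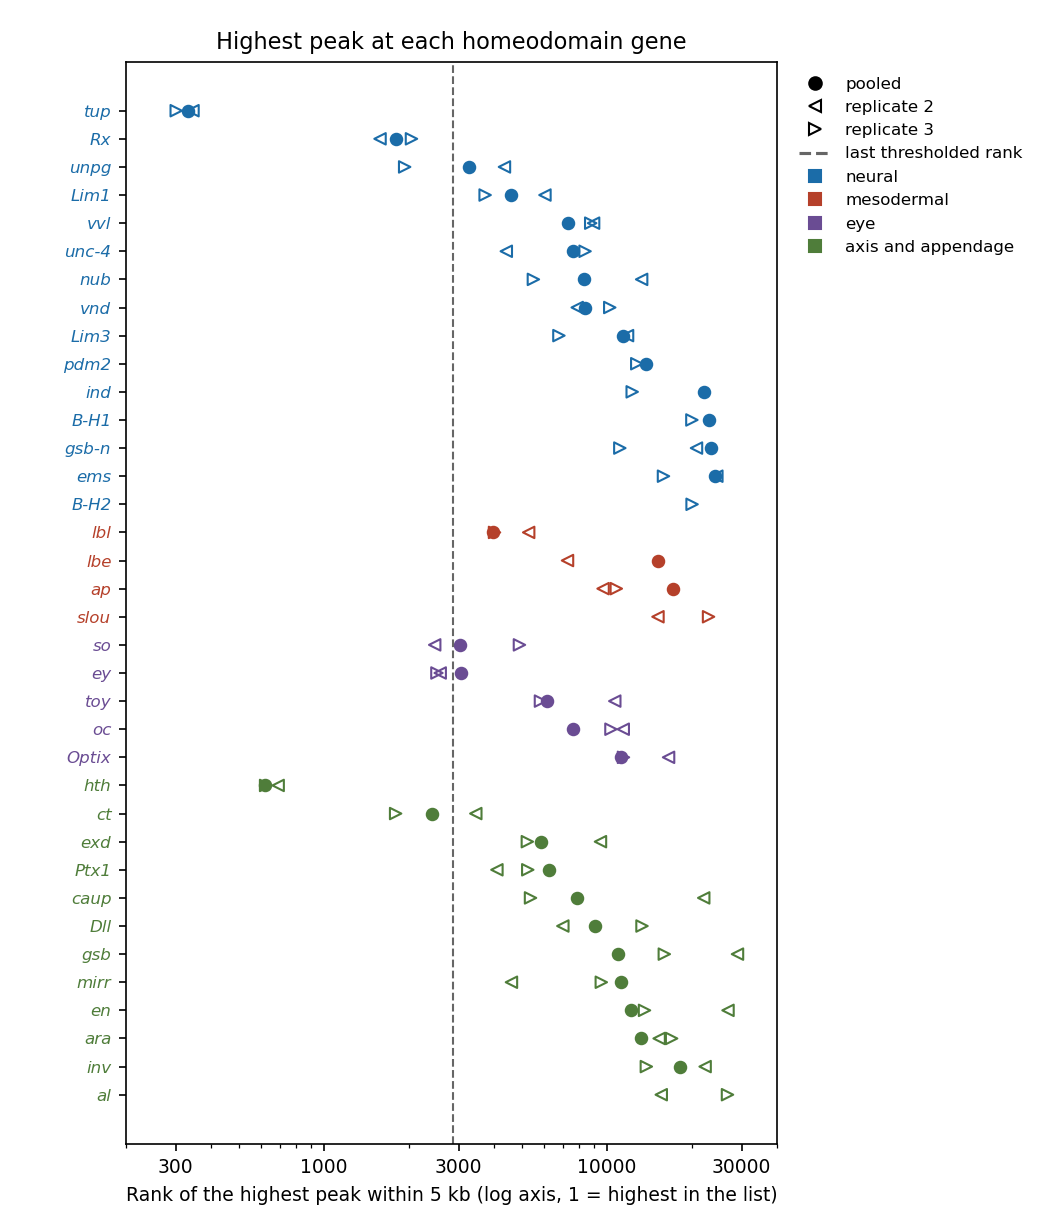
The rank of the highest peak within 5 kb of each gene (log axis, rank 1 the highest) in the pooled list (circles) and in each replicate (triangles), with genes coloured by role and a dashed line at rank 2862. In the pooled list only tup, hth, ct and Rx lie left of the line, and slou, al and B-H2 have no pooled peak.

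**Figure D2:**
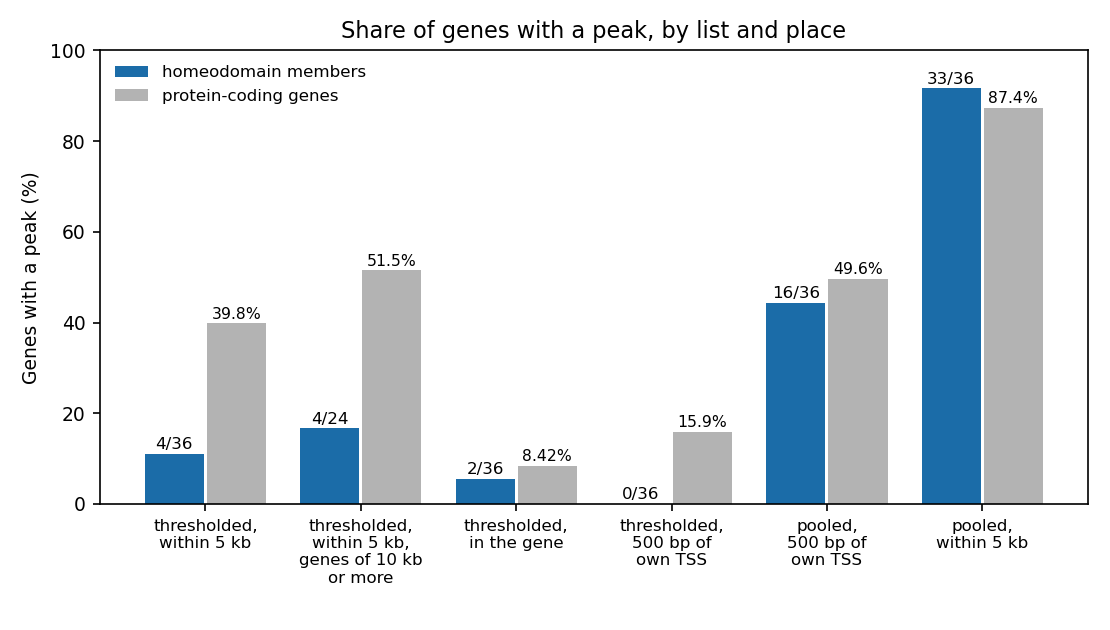
Share of genes (%) with a peak for the homeodomain genes (blue, with counts) and all protein-coding genes (grey), by list and place of the summit. The homeodomain share is lower for thresholded peaks within 5 kb (4 of 36 against 39.8%) and close to the background for pooled peaks (33 of 36 against 87.4%).

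The genes were sorted by textbook role into neural (15), mesodermal (4), eye (5) and axis and appendage genes (12), although most act in several tissues. Thresholded summits within 5 kb were at 2 of 15 neural genes (13.3%), at 0 of 4 mesodermal genes and at 0 of 5 eye genes. They were at 2 of 12 axis and appendage genes (16.7%), and the share of all genes was 39.8%. With so few genes a group, the counts do not separate the groups. In the pooled list the counts were 14 of 15, 3 of 4, 5 of 5 and 11 of 12, against 87.4% of all genes. The median rank of the highest pooled peak was 8337 for the neural, 15208 for the 3 mesodermal genes that had a peak, 6129 for the eye and 9102 for the axis and appendage genes. It was 8306 for the 33 genes with a peak together, 3443 for all genes with a peak and 2555 for those of 10 kb or more. The share of pooled peaks that a peak of each replicate overlapped was 33.3% of 75 neural, 14.3% of 14 mesodermal, 28.0% of 25 eye and 41.2% of 102 axis and appendage peaks (38.0% of 50 without hth), against 48.4% of all pooled peaks.

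Among the axis and appendage genes, homothorax (hth) held the most peaks. It encodes a TALE homeodomain cofactor that brings exd into the nucleus, where both act with Hox proteins. The gene spans chr3R:10507561-10639568 on the minus strand, 132 kb and the longest of the 36. Its highest peak, chr3R:10597635-10597838 in an intron 16.5 kb downstream of the nearest hth TSS, had a signal value of 201 and rank 622. That site had 86.6 at rank 690 in replicate 2 and 115 at rank 623 in replicate 3, so both replicates put it at a like rank. A weaker peak at chr3R:10643163-10643532 had a signal value of 81.5 at rank 2600, with 37.3 at rank 2829 in replicate 2 and 36.5 at rank 3552 in replicate 3. It lay 3.78 kb upstream of hth, in an exon of the antisense RNA gene asRNA:CR44018. The third, chr3R:10520461-10520830, had 78.4 at rank 2742, with rank 2974 in replicate 2 and 45.9 at rank 2605 in replicate 3. It lay in an intron 93.6 kb from the nearest hth TSS, and the nearest TSS of a protein-coding gene was that of Cyp12e1, 85857 bp away.

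The thresholded sites of hth were the upper end of a dense field. Within 5 kb of hth lay 52 pooled peaks, of which 43 were inside the gene and 23 were overlapped by a peak of each replicate. That was 3.66 per 10 kb, against 1.71 for the other 35 genes together and 2.24 over the arms. Single genes ranged widely: vvl (3.38), ey (3.29) and Ptx1 (3.22) came close to hth, while B-H2, slou and al had 0. Replicate 2 gave 55 peaks there and replicate 3 gave 51. Pooled peaks can overlap each other, as do 2 at the most distal site, so these are not all separate sites. Without hth the other 35 genes had 164 pooled peaks, of which 4 (2.44%) passed the threshold.

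Cut (ct) encodes the factor that gives external sense organs their identity and also shapes the wing margin and the Malpighian tubules. It spans chrX:7608428-7678859, 70.4 kb. Both of its thresholded peaks lay in introns. The higher, chrX:7651674-7652043, was 19.6 kb downstream of the nearest ct TSS, with a signal value of 86.3 at rank 2413, 24.9 at rank 5475 in replicate 2 and 59.9 at rank 1795 in replicate 3. The replicates ranked this site far apart. The lower, chrX:7618191-7618560, was 9.23 kb downstream, with 77.6 at rank 2779, 32.9 at rank 3447 in replicate 2 and 48.6 at rank 2404 in replicate 3. These are 2 of 16 pooled peaks within 5 kb of ct, 12 of them inside it.

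Of the neural genes, tailup (tup) had the highest peak of all 36. It encodes the Islet LIM-homeodomain factor of motor neurons and serotonergic neurons, which also acts in the heart. It spans chr2L:18859507-18881261 on the minus strand. The peak, chr2L:18857666-18857925, had a signal value of 279 at rank 330, with 123 at rank 345 in replicate 2 and 162 at rank 301 in replicate 3. The summit in each replicate lay 2 bp from the pooled summit, so both lists placed the site alike. It was 1707 bp past the 3′ end of tup and 23.5 kb from the tup TSS. The summit lay inside the neighbouring gene CG10602, 121 bp upstream of a CG10602 TSS, so a promoter of another gene is the nearest annotated feature.

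The summit of each of these 6 peaks with 50 bases to either side is given so that the letters under the peaks can be seen. The sequences are dm6, plus strand, from the NCBI RefSeq Release 6 assembly, in the order of description. Capitals mark matches to CANNTG or TAATTA, which read alike on both strands.
hth chr3R:10597726-10597826: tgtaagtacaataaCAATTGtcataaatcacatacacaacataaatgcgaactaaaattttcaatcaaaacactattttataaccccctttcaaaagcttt
hth chr3R:10643298-10643398: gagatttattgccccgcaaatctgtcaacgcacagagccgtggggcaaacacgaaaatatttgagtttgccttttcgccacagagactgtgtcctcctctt
hth chr3R:10520596-10520696: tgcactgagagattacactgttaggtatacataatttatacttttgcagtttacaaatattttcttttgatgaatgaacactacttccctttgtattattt
ct chrX:7651809-7651909: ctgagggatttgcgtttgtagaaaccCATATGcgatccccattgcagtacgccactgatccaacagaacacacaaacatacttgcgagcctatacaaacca
ct chrX:7618326-7618426: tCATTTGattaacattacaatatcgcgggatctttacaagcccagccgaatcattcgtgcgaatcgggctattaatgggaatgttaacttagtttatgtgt
tup chr2L:18857750-18857850: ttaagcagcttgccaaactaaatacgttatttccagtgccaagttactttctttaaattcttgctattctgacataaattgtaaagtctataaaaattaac
CANNTG stood at the highest hth site, as CAATTG, and at both ct sites, with CATATG at the higher and CATTTG at the lower. TAATTA was in none of the windows. The tup window had neither word and was 28.7% G+C.

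Rx, the retinal homeobox gene, which in the fly acts mainly in the brain, was the other neural gene with a thresholded peak. The peak, chr2R:20939810-20940179, had a signal value of 105 at rank 1804, with 53.4 at rank 1581 in replicate 2 and 54.7 at rank 2042 in replicate 3. Its place was intergenic, 2965 bp past the 3′ end of Rx and 23.2 kb from the Rx TSS. The nearest TSS was that of Act57B, a muscle actin gene, 4026 bp away. Neither neural gene with a thresholded peak thus held it inside the gene or near its own start.

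The other 13 neural genes had no thresholded peak within 5 kb. The highest pooled peak among them was at unpg, a gene of the ventral nerve cord, with a signal value of 68.1 at rank 3261. It lay 3.16 kb upstream of unpg and 54 bp from the shared start of CG45085 and CG8026. Replicate 3 had 56.6 at rank 1932 there, and replicate 2 had 23.6 at rank 5979. At Lim1, a LIM-homeodomain gene of the brain and leg, the highest pooled peak was intronic with 52.8 at rank 4575. Replicate 3 had 35.3 at rank 3719 at that site and replicate 2 had no peak on it, whereas its own highest, 23.4 at rank 6051, was 1 bp upstream of the Lim1 TSS. The replicates thus named different sites at Lim1.

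The POU genes ranked lower. The highest pooled peak had a signal value of 38.2 at rank 7325 for vvl, a gene of trachea and neurons, 35.1 at rank 8306 for nub and 25.3 at rank 13732 for pdm2. The last pair serve in the timing of neuroblast lineages, and nub had 15 pooled peaks, 11 of them in the gene. Of the columnar genes that divide the neuroectoderm, vnd had 34.9 at rank 8368 past its 3′ end, in an intron of spdi. The ind peak, 18.9 at rank 22156, was 4.41 kb upstream, in an intron of Sytbeta and 1166 bp from the TSS of CG43678. The motor neuron genes Lim3 and unc-4 had 28.3 at rank 11417 and 37.2 at rank 7601, both past the 3′ end. The Lim3 summit lay in the coding sequence of CG10700, and the TSS nearest to the unc-4 summit was that of OdsH, 10626 bp away. At ems, a gene of the head and brain, the value was 17.9 at rank 24089, and at gsb-n, a gene of the nerve cord, 18.2 at rank 23425. The Bar genes of sense organs and photoreceptors had 18.4 at rank 22954 for B-H1 and, for B-H2, a peak only in replicate 3 (13.7 at rank 20041). Replicate 2 had no peak on the highest pooled peak of pdm2, ind, gsb-n and B-H1, and replicate 3 had none on that of ems.

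None of the mesodermal genes had a thresholded peak. Ladybird late (lbl), which with ladybird early (lbe) marks muscle and heart precursors, had the highest pooled peak, with a signal value of 59.0 at rank 3980 in an intron. The value was 25.3 at rank 5301 in replicate 2 and 33.3 at rank 4014 in replicate 3, and it was the highest lbl peak in each. The highest pooled peak of lbe, 23.8 at rank 15208, was 306 bp upstream of its TSS, with 20.9 at rank 7271 in replicate 2 and no peak of any kind within 5 kb in replicate 3. At apterous (ap), a LIM-homeodomain gene of muscles, interneurons and the dorsal wing, the value was 22.2 at rank 17116, with no peak of replicate 2 on it. At slouch (slou), which sets the identity of a subset of muscles, there was 13.4 at rank 15182 in replicate 2 and 12.8 at rank 22915 in replicate 3, at different sites.

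Of the eye genes, so and ey came closest to the threshold. Sine oculis (so), which acts with eya to start retinal fate, had a pooled peak 370 bp upstream of its TSS with a signal value of 72.1 at rank 3035, under the lowest thresholded value of 75.7. That site had 40.8 at rank 2467 in replicate 2 and 29.2 at rank 4917 in replicate 3. The Pax6 gene eyeless (ey), chr4:697689-721173, had 71.6 at rank 3062 at a peak 52 bp upstream of its TSS, chr4:697452-697821. At this site replicate 2 had 39.5 at rank 2580 and replicate 3 had 30.9 at rank 4478, while the highest peak of replicate 3, 47.1 at rank 2512, was 767 bp upstream. A pooled peak with 62.3 at rank 3657 was 762 bp upstream of ey, and another with 45.5 at rank 5690 was 1.62 kb upstream, 18 bp from the TSS of the neighbouring gene myo. With the lists of 1 replicate alone, the 2862 highest peaks held both so and ey in replicate 2 and ey in replicate 3. The ey summit with 50 bases to either side (dm6, plus strand, RefSeq, chosen after its values were seen) is given as an example of a peak at an own start, with CANNTG in capitals.
ey chr4:697587-697687: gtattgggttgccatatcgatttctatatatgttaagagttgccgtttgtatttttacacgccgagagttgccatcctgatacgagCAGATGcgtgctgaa
The single match, CAGATG, lies on the side of the ey TSS.

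**Figure D3:**
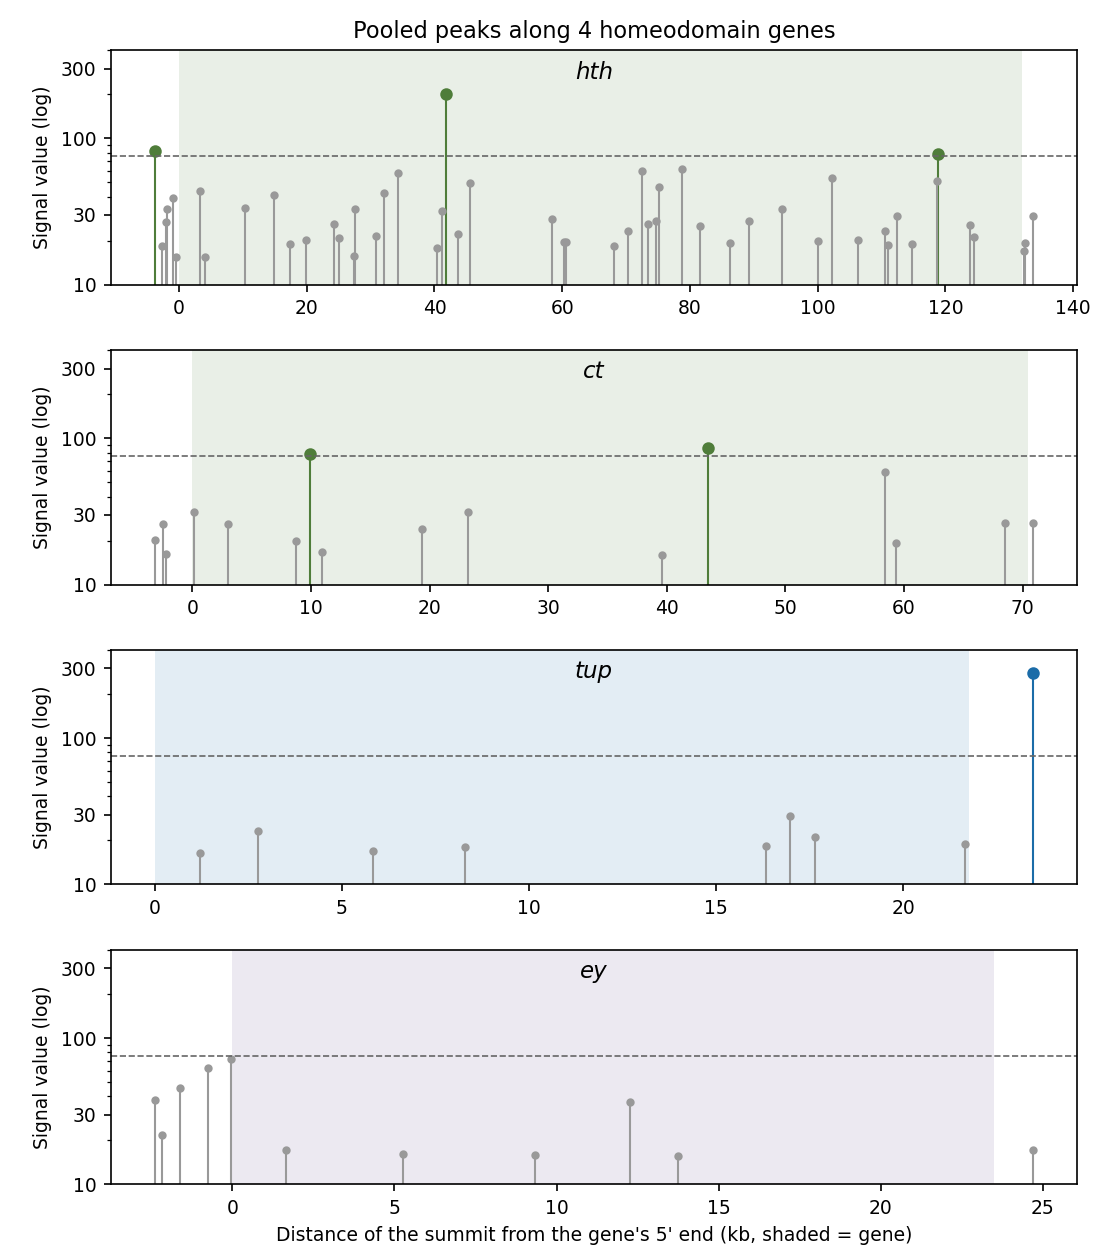
Signal value (log axis) of each pooled peak within 5 kb of hth, ct, tup and ey by the distance (kb) of its summit from the gene's 5′ end, with the gene shaded, thresholded peaks in colour and a dashed line at the lowest thresholded value. The tup peak at 279 stands past the 3′ end, hth has 3 and ct has 2 peaks over the line, and the ey peak at 71.6 is just under it.

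The remaining eye genes followed. The Pax6 gene twin of eyeless (toy) had 43.2 at rank 6129 at 61 bp upstream of its TSS, with 16.7 at rank 10682 in replicate 2 and 26.2 at rank 5834 in replicate 3. All 3 lists thus placed the highest toy peak at its start. The head and ocelli gene oc had 37.3 at rank 7587, past its 3′ end. Optix, a gene related to so, had 28.7 at rank 11222, also past its 3′ end and with no replicate peak on it.

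Of the axis and appendage genes without a thresholded peak, exd, the partner of hth, was highest, with 44.5 at rank 5848. That peak was 394 bp upstream of an exd TSS but 100 bp from the start of CG46312 and eIF5. Ptx1, the Pitx gene, had 42.6 at rank 6267 in an intron, and both replicates had a peak on 6 of its 9 pooled peaks. Of the Iroquois genes, which pattern the dorsal eye and the notum, caup had 36.3 at rank 7851, mirr 28.6 at rank 11281 and ara 26.0 at rank 13181. The limb gene Dll had 32.9 at rank 9102, 114 bp upstream of its TSS, the segment polarity gene gsb 29.1 at rank 10970, en 27.2 at rank 12206 and its neighbour inv 21.4 at rank 18170. Replicate 3 had no peak on the mirr, ara and Dll peaks, and replicate 2 had none on the en peak. Aristaless (al), a gene of the tips of legs and antennae, had no pooled peak, with 13.2 at rank 15593 in replicate 2 and 11.7 at rank 26735 in replicate 3.

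Pooled peaks at own starts were mostly low. Within 500 bp of an own TSS, 16 of 36 genes (44.4%) had a pooled peak, against 49.6% of all genes. By role these were 3 of 15 neural (vnd, ems, nub), 2 of 4 mesodermal (lbe, ap), 4 of 5 eye (so, ey, toy, oc) and 7 of 12 axis and appendage genes (exd, Ptx1, Dll, ct, mirr, hth, gsb). The median best rank of such peaks was 12403, against 5814 over the 6917 genes with one. A peak of each replicate overlapped the peak at so, ey, exd, toy, Ptx1 and ct, 6 of 16. The highest signal value there was 72.1 at so and the lowest 15.8 at ap.

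Introns held more of the pooled peaks than any other location, and hth supplied many of them. Of the 216 peaks, 53.7% were intronic, 21.3% intergenic and 15.7% within 500 bp of any TSS, against 42.9%, 20.1% and 28.9% of all pooled peaks. Without hth, which was left out after seeing the data, 75 of 164 (45.7%) were intronic, 26.2% intergenic and 19.5% near a TSS. Of the 34 peaks near any TSS, 1 (2.94%) passed the threshold, the tup peak at the start of CG10602, against 19.3% of all pooled peaks near a TSS. Of the 116 intronic peaks 4 (3.45%) passed, against 6.73%, and without hth 2 of 75 (2.67%). A lower share past the threshold thus stood in both places. The nearest protein-coding TSS was that of 1 of the 36 genes for 159 of the 216 peaks, and a peak of each replicate overlapped 76 (35.2%). Of the highest pooled peaks of the 33 genes with one, 20 were overlapped by a peak of each replicate. One peak, at rank 26171, lay within 5 kb of both lbe and lbl and was counted once.

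The replicates were compared over the 31 genes with a peak in both lists. For the highest peak of each gene, Pearson's r was 0.86 on log2 signal values and Spearman's rho was 0.81, and without tup and hth, the 2 genes farthest from the median in replicate 2, these were 0.73 and 0.76. The points share a control alignment, and longer windows can hold more peaks. The highest peaks of both replicates were the same site, overlapping by at least 1 bp, for only 8 of the 31: lbl, oc, toy, so, tup, hth, Rx and gsb. For the other 23 the lists named different sites. Among the 2862 highest peaks of each list, replicate 2 had summits within 5 kb of 5 genes (13.9%; ey, so, tup, hth, Rx) against 39.0% of all genes, and replicate 3 of 6 (16.7%; unpg, ey, tup, ct, hth, Rx) against 40.3%.

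**Figure D4:**
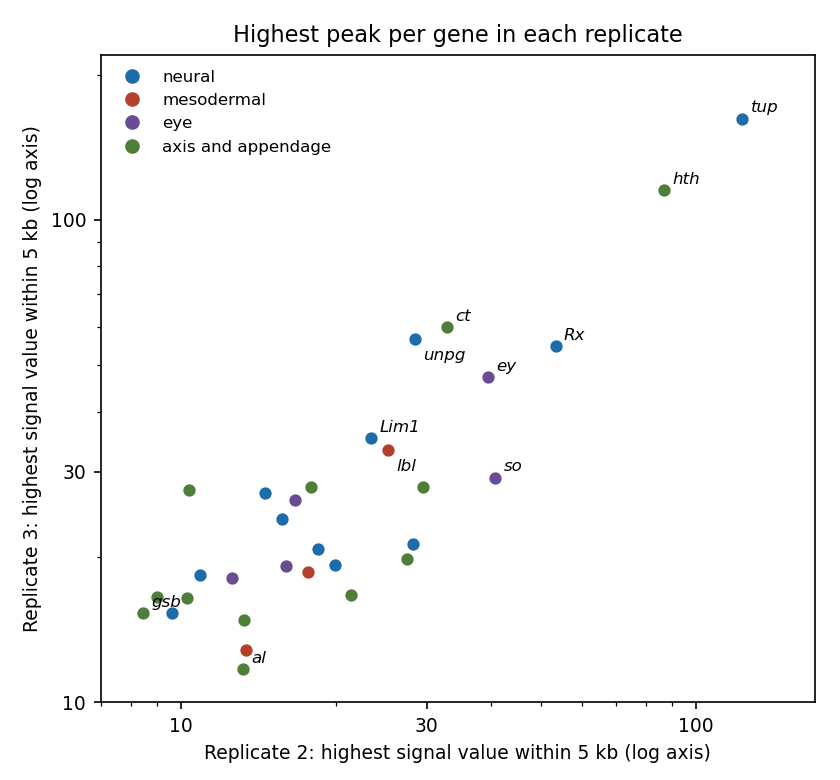
Signal value of the highest peak within 5 kb of each gene in replicate 2 (x axis) and replicate 3 (y axis), both on log axes, for the 31 genes with a peak in both, coloured by role. Both lists put tup (123 and 162) and hth (86.6 and 115) highest.

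The words were counted within 50 bp of each summit. CANNTG was at 4 of the 7 thresholded peaks (57.1%) and at 99 of the 216 pooled peaks (45.8%), against 32.4% of all thresholded and 39.9% of all pooled peaks. In windows of the same length centred 250 bp to the right and left of the 216 summits, it was in 41.7% and 34.7%. For the 7 these flanks had 14.3% and 42.9%. They had 39.7% and 40.6% for all thresholded peaks, above the share at those summits, and 40.4% on either side for all pooled peaks. TAATTA was at 0 of the 7 and 12 of the 216 (5.56%), against 11.5% of all thresholded and 7.13% of all pooled peaks. The right and left flanks had it in 14.3% and 0% for the 7 and in 6.02% and 7.41% for the 216. They had 4.93% and 5.45% for all thresholded peaks, under the share at those summits, and 6.57% and 6.83% for all pooled peaks. The 7 windows had a mean G+C content of 34.8% ± 9.64 (SD over peaks) and the 216 had 41.4% ± 9.86, against 32.4% ± 9.30 of all thresholded and 40.0% ± 10.2 of all pooled peaks. The part of base composition in these shares was not tested.

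Of 51 other homeodomain genes, Hox genes included, 16 (31.4%) had a thresholded summit within 5 kb, against 39.8% of all genes. A thresholded summit lay inside 7 (13.7%), against 8.42%, and within 500 bp of the own TSS of 4 (7.84%), against 15.9%. The highest were otp, a brain gene, with a signal value of 309 at rank 263, zfh2 with 260 at rank 378, zfh1 with 242 at rank 437 and pros, which ends neuroblast renewal, with 229 at rank 485. The otp summit was in its coding sequence and the zfh1 summit in an intron, while the pros summit was past the 3′ end, 72 bp from the start of Irbp. Within 5 kb and at own starts the shares of both groups of homeodomain genes were thus under the background of all genes. Inside the gene that of the 51 was above it and that of the 36 was under it. The 51 were not matched for length, and 31.0% of all genes of 10 kb or more held a thresholded summit inside.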

How the data were processed

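The authors deposited 4 peak lists on dm6: 1 for each replicate, 1 from the pooled replicates and 1 thresholded by the irreproducible discovery rate (IDR), per the deposited text files. Each deposited list holds, for every peak, a signal value (a score of unstated scale) and a q-value as −log10. All thresholded peaks have the same deposited −log10 value, 3.83, so it was not used to rank. Which caller made the peaks, with which settings and which IDR cutoff, is not given in the sources used here. Depth is unknown.

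Genes came from Ensembl release 115 (BDGP6) and sequence from RefSeq Release 6. A summit was the start plus the summit offset, and coordinates are 1-based. Genes were counted with a summit in the gene or within 5 kb. A location was promoter if within 500 bp of any TSS, else by transcript feature. Replicate peaks overlapped by at least 1 bp. Words were searched within 50 bp of the summit. No test was run, since 1 group allows none; shares stand beside those of all genes or peaks. Scripts used Python 3.11.15, numpy 2.4.6, scipy 1.17.1 and matplotlib 3.10.9, and counting was tested on simulated data. All 36 genes are named with their highest peak or its absence, and of the list of other homeodomain genes and each partner list up to 4 with the highest thresholded peak. The genes, roles, lists and alternatives were chosen with earlier results of these data known. Alternatives used 1 replicate's 2862 highest peaks, the upper 1431 thresholded peaks, other gene ranges and windows, broader roles, and the genes without hth.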

Additional observations from a re-analysis of the deposited data

How the results depend on the processing

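With the 2862 highest peaks of 1 replicate in place of the thresholded list, 5 to 6 of 36 genes had a peak within 5 kb. Their peaks were 7 to 9, neural genes 2 to 3, mesodermal 0, eye genes 1 to 2 and own starts 0 to 2. Of all genes, 39.0% had one in replicate 2 and 40.3% in replicate 3. The eye genes were 2 of 5 (ey, so) in replicate 2, not under the share of all genes, and 1 of 5 (ey) in replicate 3. Peaks overlapped by both replicates were 7 to 9, those with CANNTG 5 to 7, and the genes with any peak 32 to 35. With the upper 1431 thresholded peaks, tup and hth, 2 genes (25.4% of all genes), had 2 peaks, both overlapped by each replicate, 1 neural gene had one and 1 peak had CANNTG. Within 1 kb (23.1% of all genes), in the gene (8.42%) or by nearest TSS (15.7%), the 2 genes hth and ct had 4 peaks, all 4 overlapped by each replicate, and 0 neural genes had one. Within 10 kb 6 genes had one (53.2% of all genes), 4 of them neural, and TAATTA was at 1 of 10 peaks. With broader roles, in which a gene can have several, the groups were larger. The counts were then 4 of 27 neural, 1 of 9 mesodermal and 1 of 12 eye genes, against 39.8% of all genes. The thresholded list was itself made for reproducibility between these replicates, so overlap with their full lists is no separate evidence for its peaks. Of the 7 peaks, 3 were overlapped by the 2862 highest of each replicate. Within 100 bp of the summit on either side, TAATTA was at 2 of the 7 peaks, and within 25 bp CANNTG was at 2. Leaving out hth, chosen after seeing the data, left 4 peaks, all 4 overlapped by each replicate. In each of these settings with a count of genes, the share of the 36 with a thresholded peak, or with 1 of the 2862 highest of a replicate, was under that of all genes. The share with any peak within 5 kb was above it in the full list of each replicate, as in the pooled list. These shares were not matched for gene length, and the 36 are long. Of 1977 genes of 10 kb or more, 1930 had a pooled peak, 1907 one of replicate 2 and 1962 one of replicate 3.

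The lists cover 1 line and 1 age range, with 2 replicates and a shared control, so no error can be put on a count. A nearby summit does not tie a peak to a gene.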

Other observations

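Genes that work with these factors were listed for 3 of the roles, with the list chosen from textbook roles. Of 14 partners of the mesodermal genes, 5 (35.7%) had a thresholded summit within 5 kb, close to the 39.8% of all genes. The highest was at Mef2, the muscle differentiation gene, with a signal value of 1166 at rank 8. Its summit was 1.06 kb upstream of the nearest Mef2 TSS, inside the neighbouring gene Pal1 and 160 bp upstream of a Pal1 TSS. Next were org-1 with 288 at rank 312, the MyoD gene nau with 189 at rank 692 and the heart gene tin, itself a homeodomain gene, with 182 at rank 745. The org-1 and tin peaks were 347 and 206 bp upstream of their own TSS, while the nau peak was 299 bp upstream of CG10365.

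Of 13 partners of the neural genes, 4 (30.8%, against 39.8% of all genes) had one: grh, a late neuroblast timer, with 114 at rank 1618, hb, an early one, with 99.3 at rank 1968, D with 90.8 at rank 2247 and Chi, the cofactor of LIM-homeodomain proteins, with 84.9 at rank 2469. No peak of replicate 2 overlapped the hb peak. Of 10 partners of the eye genes, 2 (20.0%, against 39.8%) had one, the corepressor genes Gug with 284 at rank 317 and gro with 211 at rank 564. The retinal determination genes eya and dac had none.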
